A study of Schizosaccharomyces japonicus with 6 samples.

Results

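Tj2 is a family of LTR retrotransposons in the genome of the fission yeast Schizosaccharomyces japonicus, and its members were described here by their transcript levels and positions. Its loci were all those in the deposited table named Tj2 with its type and number, which gave 18 of 5152 loci. Families Tj1 to Tj10 had 266 loci in that table, 248 of them outside Tj2. By their names, the Tj2 loci were 1 full-length element, 8 partial elements and 9 solo LTRs.

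An LTR retrotransposon carries the genes for a capsid protein (gag) and for a protease, reverse transcriptase and integrase (pol) between long terminal repeats (LTRs) that lie in the same direction. Transcription starts in the repeat at the 5′ end and stops in the repeat at the 3′ end, and the RNA serves both as the messenger and as the template for a new copy. Recombination between the repeats of one copy removes the inside and leaves a solo LTR, while deletions and later insertions leave partial copies. In S. japonicus such elements lie mostly in clusters at centromeres and telomeres, where small RNAs cut by the Dicer ribonuclease Dcr1 take part in their silencing.

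Polyadenylated RNA was sequenced from cells of 2 strains, with 3 libraries each. The dcr1 mutant, EHB3054, carried the disrupted allele dcr1-dis::natMX6 together with a missense change, mpe1-R77W, in the gene for Mpe1, which in other yeasts belongs to the machinery that cleaves and polyadenylates messengers. It was a single surviving isolate, so that effects of its dcr1 and mpe1 changes cannot be told apart. The wild type, EHB2742, carried neither change. Both strains were h- mat-P2028, both carried ura4-D3 and ade6(sj)-domE, and both were grown in YES medium at 32 °C.

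The level of a locus is here the authors' mean over all 6 libraries, dcr1 mutant and wild type pooled, in CPM, a locus's count scaled to a common library total, or in its log2. The strains were therefore not set against each other, no error or test belongs to any level, and a level may come mostly from one strain. Depth per library is unknown. Reads that matched several places had been split between them, so loci of one family share reads and are not independent of each other. The lowest log2 CPM of the table, -3.99 or 0.0628 CPM, was held by 15 loci, 12 of them Tj1 to Tj10 loci, and is taken as the level of loci with no reads. The highest log2 CPM was 13.02, and 99.7% of all loci lay above the lowest level.

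Of the 18 Tj2 loci, 16 lay above the lowest level. The 2 at that level were both solo LTRs. The levels of the family formed an order by element type with no overlap: the full-length element was highest, the 8 partial elements came next, and the 9 solo LTRs were lowest. The median log2 CPM was 0.64 over the 18 Tj2 loci, against -0.56 over the other 248 Tj1 to Tj10 loci, 6.03 over the loci outside these families and 5.93 over all loci. Only 2 Tj2 loci, the full-length element and the highest partial element, exceeded the median of the loci outside Tj1 to Tj10.

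**Figure D1:**
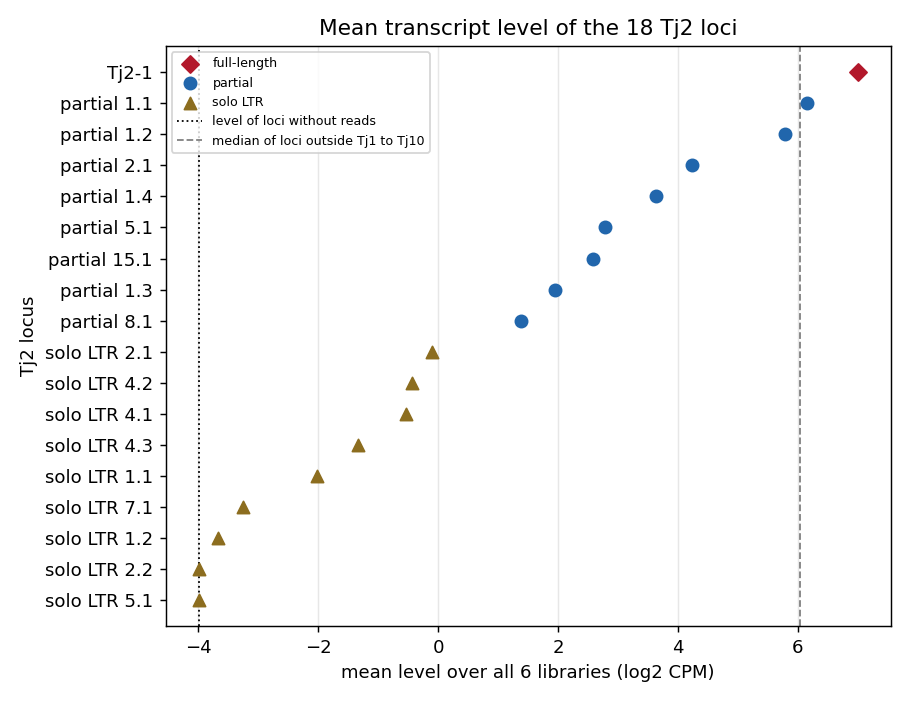
Mean level of each Tj2 locus over all 6 libraries, in log2 CPM, with the loci in order of level and the element type given by the marker. The dotted line is the level of loci without reads (-3.99) and the dashed line the median of the loci outside Tj1 to Tj10 (6.03); solo LTRs end at -0.10, below the lowest partial element at 1.38.

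The full-length element, Tj2-1, lay on supercont5.7 from 3728 to 9347 on the plus strand of the SJ5 assembly and was 5620 bases long. Its level was 6.99 log2 CPM, or 127 CPM, which was higher than that of 72.1% of all loci. It ranked 6 among the 266 Tj1 to Tj10 loci. The 5 above it were 2 Tj7 loci and 3 Tj6 loci. Tj2-1 alone carried 41.4% of the CPM of its family and 31.3% of its length.

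Levels of different elements can be compared only per length, because a longer element yields more fragments at the same number of transcripts. Expressed per kilobase of element, Tj2-1 had 22.7 CPM per kb, the first of the 13 full-length elements of Tj1 to Tj10. Only 7 of the 10 families had a full-length locus, and Tj7, the highest family by summed CPM, had none. The next was Tj9-3 with 11.2 CPM per kb, and Tj2-1 was 2.02 times as high per kb as this next copy. Tj9 had 3 full-length elements, among which reads that matched several places were split. Their summed level was 150 CPM, against 127 CPM for Tj2-1. The median of the other 12 full-length elements was 2.22 CPM per kb, a 10.2-fold gap, and the lowest of them, Tj4-1, had 0.0120 CPM per kb.

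The partial elements, which have lost part of the sequence between the repeats or a repeat itself, held 57.5% of the CPM of the family, against 58.8% of its length. The highest were a pair on supercont5.1 on the minus strand, separated by 818 bases. Tj2_partial_retrotransposon-1.1 (1784019 to 1786985, 2967 bases) had 6.16 log2 CPM, or 71.3 CPM. Tj2_partial_retrotransposon-1.2 (1787804 to 1789777, 1974 bases) had 5.79 log2 CPM, or 55.2 CPM. Together with Tj2-1 this pair made up 82.5% of the CPM of all 18 loci, so that most of the family's summed level was assigned to 3 copies. These were also the 3 longest Tj2 loci. With reads split between copies, the share of each copy is uncertain.

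The next partial elements were shorter. Tj2_partial_retrotransposon-2.1, on the plus strand of supercont5.2 (3827881 to 3829106, 1226 bases), had 4.24 log2 CPM, or 18.9 CPM. Tj2_partial_retrotransposon-1.4, on the minus strand of supercont5.1 (4271990 to 4272610, 621 bases), had 3.64 log2 CPM, or 12.5 CPM. The 5 highest Tj2 loci thus covered a 10.2-fold range in CPM, but per kb they covered only a 1.82-fold range, between 15.4 and 27.9 CPM per kb. Their order also changed with the scale: per kb partial 1.2 led with 27.9, followed by partial 1.1 with 24.0, Tj2-1 with 22.7, partial 1.4 with 20.1 and partial 2.1 with 15.4. With no error for any level, neighbours in this order cannot be said to differ.

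The other 4 partial elements were lower on both scales. Tj2_partial_retrotransposon-5.1, on the minus strand of supercont5.5 (55187 to 55939, 753 bases), had 6.89 CPM and 9.15 CPM per kb. Tj2_partial_retrotransposon-8.1, on the plus strand of supercont5.8 (100 to 440, 341 bases), had 2.61 CPM and 7.65 CPM per kb. Both stayed above the median of partial elements of the other families, as did the remaining pair. Tj2_partial_retrotransposon-1.3, on the plus strand of supercont5.1 (4290578 to 4291456, 879 bases), had 3.88 CPM and 4.42 CPM per kb. Tj2_partial_retrotransposon-15.1, on the plus strand of supercont5.15 (1506 to 3291, 1786 bases), had 5.98 CPM and 3.35 CPM per kb. Partial 15.1 was longer than partial 2.1 and had the lowest level per kb of the 8, so that among partial elements length and level did not always run together.

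The solo LTRs carry no genes, only the repeat, which holds the start and stop signals for transcription. The 9 of them held 1.08% of the CPM of the family but 9.89% of its length. Tj2-type_LTR-2.1, on the plus strand of supercont5.2 (3827306 to 3827520, 215 bases), was the highest with -0.10 log2 CPM, or 0.935 CPM. It lay 360 bases before partial 2.1 on the same strand, and per kb it had 4.35 CPM, against 15.4 CPM for that partial element. It was also the only solo LTR of Tj2 whose level per kb exceeded that of a Tj2 partial element, namely partial 15.1.

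A group on supercont5.4, where Tj2 had no other type of copy, followed. Tj2-type_LTR-4.2 (124195 to 124533, minus strand) had 0.743 CPM and Tj2-type_LTR-4.1 (59268 to 59606, plus strand) had 0.693 CPM. Both were 339 bases long, the longest of the Tj2 solo LTRs, and they were close in level per kb, 2.19 for LTR 4.2 and 2.04 for LTR 4.1. Tj2-type_LTR-4.3 (46349 to 46580, plus strand, 232 bases) had 0.397 CPM and 1.71 CPM per kb.

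The shortest solo LTRs were near the lowest level. Tj2-type_LTR-1.1, on the plus strand of supercont5.1 (3511805 to 3511907, 103 bases), had 0.246 CPM. Tj2-type_LTR-7.1, on the minus strand of supercont5.7 (9937 to 10037, 101 bases), had 0.105 CPM, and Tj2-type_LTR-1.2, on the plus strand of supercont5.1 (4243472 to 4243569, 98 bases), had 0.0785 CPM. Much of a value so close to 0.0628 CPM is that lowest level itself. Tj2-type_LTR-2.2, on the plus strand of supercont5.2 (3833388 to 3833508, 121 bases), and Tj2-type_LTR-5.1, on the plus strand of supercont5.5 (10011 to 10236, 226 bases), were at the lowest level. Neither was above the level of loci with no reads, although LTR 5.1 was longer than LTR 2.1, the highest solo LTR of the family.

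Across the 18 Tj2 loci, level and length ran together, with a Spearman rho of 0.915 and a Pearson r of 0.940 between log2 length and log2 CPM. The points share split reads, and the relation is a description only. It was looser within a type: rho was 0.714 (r = 0.777) over the 8 partial elements and 0.513 (r = 0.677) over the 9 solo LTRs. The median log2 CPM of the partial elements exceeded that of the solo LTRs by 5.24, and by 2.84 when levels were taken per kb. The medians of the types thus differed on both scales, but per kb the ranges overlapped, from 0.278 to 4.35 for solo LTRs and 3.35 to 27.9 for partial elements. In CPM they did not overlap, nor did they in length, with solo LTRs up to 339 bases and partial elements from 341.

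**Figure D2:**
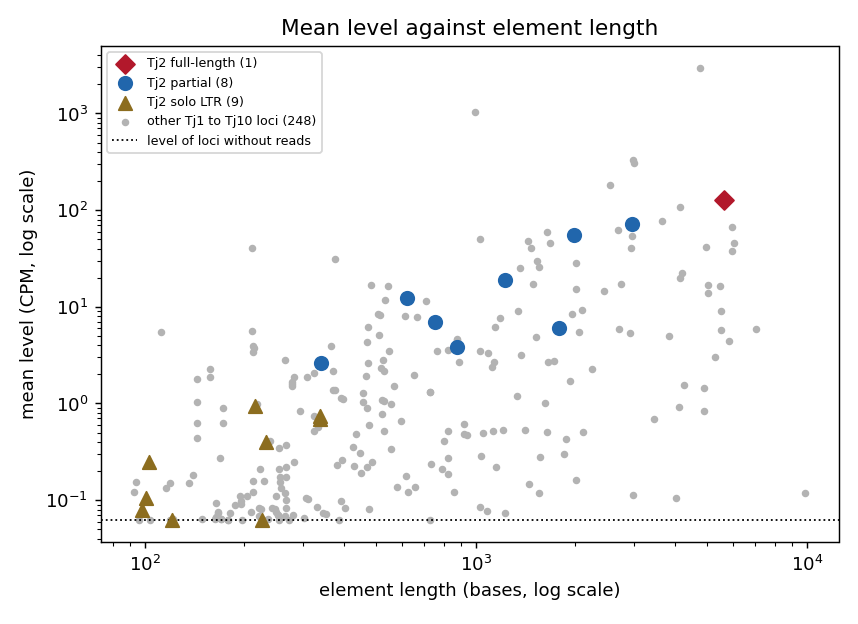
Mean level over all 6 libraries (CPM, log scale) against element length (bases, log scale) for the 18 Tj2 loci and the other 248 Tj1 to Tj10 loci; the dotted line is the level of loci without reads. The Tj2 loci rise from solo LTRs of 98 to 339 bases to Tj2-1 at 5620 bases (rho = 0.915), and all 8 partial elements lie at 2.61 CPM or above.

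Set beside the other families, Tj2 was higher by the median copy. By summed level per summed length it was lower than the others pooled but higher than the others without Tj7. Its 18 loci summed to 308 CPM, 4.70% of the CPM of Tj1 to Tj10 and 0.0307% of the CPM of all loci, while all Tj1 to Tj10 loci together held 0.653%. Tj2 made up 6.77% of the Tj1 to Tj10 loci and 5.81% of their length. By summed CPM it ranked 5 of 10 families. By median CPM per kb over all its loci, 3.85 against 1.26 for the loci of the other families, it ranked 2 of 10, behind Tj7. By summed CPM over summed length the order turned, with 17.2 CPM per kb for Tj2 against 21.5 for the others, or 7.87 for the others without Tj7. The highest Tj2 locus was lower in CPM than the highest of Tj7 (Tj7_partial_retrotransposon-1.1, 11.51 log2 CPM) and of Tj6 (Tj6_partial_retrotransposon-1.2, 8.36 log2 CPM). In CPM it was higher than the highest of the other 7 families, led by Tj8_partial_retrotransposon-3.1 with 6.74 log2 CPM. Levels per kb gave another order. The highest Tj2 value, 27.9 CPM per kb, was below the highest of Tj7, Tj6, Tj8 (83.8), Tj9 (48.5) and Tj5 (30.2). It was above the highest of Tj1, Tj3, Tj4 and Tj10.

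The median partial element of Tj2 was high among those of the other families. By summed level per length, Tj2 partial elements were below the others pooled but above them without Tj7. All 8 Tj2 partial elements were above the median of the 182 partial elements of the other families. Their median was 12.3 CPM per kb, against 1.59 CPM per kb for the others, a ratio of 7.72, and their range of 3.35 to 27.9 CPM per kb was an 8.35-fold one. Of the 182 other partial elements, 29 exceeded the Tj2 median per kb, 118 lay below the lowest Tj2 partial element and 9 had no reads. No Tj2 partial element was without reads. By this median Tj2 ranked 1 of 10 families, before Tj7 with 6.50, Tj6 with 5.33 and Tj9 with 3.51 CPM per kb. By summed CPM over summed length the direction turned, with 16.8 CPM per kb for Tj2 partial elements against 28.8 for the others, or 9.93 for the others without Tj7. The rank also rests on the choice of measure, as Tj2 was 2 of 10 over partial elements of at least 500 bases and 3 of 10 by summed CPM over summed length.

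The solo LTRs of Tj2 were in the middle of the families. Their median was 1.71 CPM per kb, against 0.715 CPM per kb for the 54 solo LTRs of the other families, a ratio of 2.40, and they ranked 4 of 10. By summed CPM over summed length they were the lower ones, with 1.87 CPM per kb against 6.88 for the others, or 2.97 for the others without Tj7, and by summed CPM they ranked 6 of 10. Fewer of them also had reads: 7 of the 9 Tj2 solo LTRs were above the lowest level, against 53 of the other 54. Loci within a family share reads and no per-library values were used, so these differences between families have no test.

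**Figure D3:**
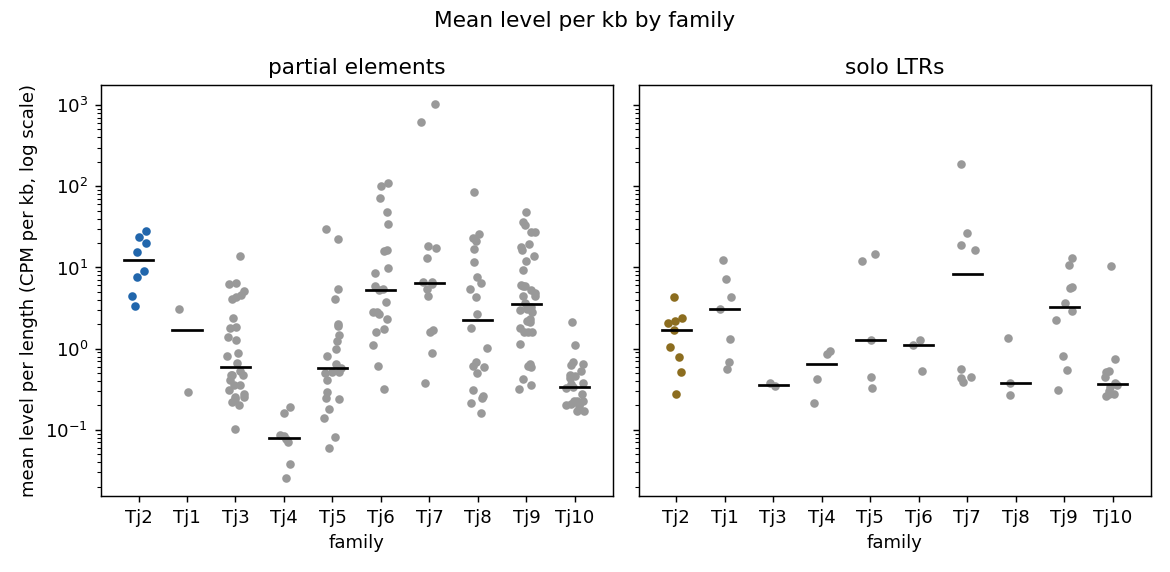
Mean level per length (CPM per kb, log scale) of partial elements (left) and solo LTRs (right), with Tj2 first and the other families after it; each point is a locus and the bar is the family median. Tj2 partial elements have the highest median (12.3 CPM per kb) with no locus below 3.35. Tj2 solo LTRs have a median of 1.71 CPM per kb. By summed CPM over summed length both Tj2 types lie below the other families pooled (16.8 against 28.8 and 1.87 against 6.88 CPM per kb). With Tj7 left out the others have 9.93 for partial elements, below Tj2, and 2.97 for solo LTRs, above Tj2.

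The Tj2 loci lay on 7 contigs, 12 on the plus and 6 on the minus strand. The contigs supercont5.1 and supercont5.2 held 9 of them and 52.9% of the family's CPM. Another 9 were on shorter contigs, with 47.1% of the CPM, 41.4% from Tj2-1 alone. By contig, supercont5.1 had 46.5% of the Tj2 CPM on 6 loci and supercont5.7 had 41.4% on 2 loci. The 3 loci on supercont5.4, all solo LTRs, had 0.595%.

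Positions, which the choice of loci did not use, placed the Tj2 loci near elements of other families. Every one of the 18 Tj2 loci had an element of another family within 5 kb, and 17 had one within 1 kb. An element lay within 5 bases on both sides of 2 Tj2 loci and on 1 side of 8 others. Both of the loci enclosed in this way were solo LTRs on supercont5.4. LTR 4.1 lay directly between Tj8_partial_retrotransposon-4.3 and Tj8_partial_retrotransposon-4.6, all on the plus strand, and LTR 4.2 lay between Tj17_partial_retrotransposon-4.3 and Tj17_partial_retrotransposon-4.4, both on the strand opposite to it. LTR 4.1 had 2.04 CPM per kb, against 4.37 CPM per kb for the Tj8 piece before it and 83.8 CPM per kb for the one after it. The solo LTR was thus below both pieces that enclosed it.

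The surroundings gave a way to set the level of a Tj2 copy beside that of the elements around it. Of the 18 loci, 16 had an element of another family with a level within 5 kb. Per kb, 5 of these 16 were above every such neighbour and 0 were below every one. The 0 rests on the lowest level divided by short lengths. LTR 5.1, at that level, had 0.278 CPM per kb, above Tj4-type_LTR-5.1 with 0.212 and Tj8-type_LTR-5.1 with 0.272. In CPM both of these neighbours were higher than LTR 5.1, with 0.0733 and 0.0639 against 0.0628. LTR 7.1, close to the lowest level, had 1.04 CPM per kb, above only Tj4-type_LTR-5.7 with 0.945. With that level subtracted LTR 7.1 had 0.416 CPM per kb. In CPM LTR 7.1 was below both its measured neighbours, with 0.105 against 0.211 for that LTR and 9.10 for Tj3-2. The count of loci below every neighbour was not repeated with the lowest level subtracted. The number of measured neighbours ran from 1 for LTR 4.2 to 10 for partial 2.1. With neighbours within 1 kb only, a distance chosen after the data were seen, 8 of the 14 loci that had one were above all of them. A locus with fewer measured neighbours is more readily above all of them, and the count to be expected was not computed. Within 5 kb, the loci above every neighbour were 3 of 7 full-length and partial copies and 2 of 9 solo LTRs. Partial 1.1 and partial 1.3 had only Tj17 elements within 5 kb, for which the table holds no level.

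Of these 5, the gap was widest for partial 1.4, with 20.1 CPM per kb against 0.0762 CPM per kb for its highest neighbour, Tj4_partial_retrotransposon-1.3. Tj2-1 had 22.7 CPM per kb, against 5.22 CPM per kb for Tj6_partial_retrotransposon-7.1, and partial 8.1 had 7.65 CPM per kb, against 0.524 CPM per kb for Tj10_partial_retrotransposon-8.1. These copies stood above all measured elements of other families within 5 kb, of which partial 1.4 had 2, Tj2-1 had 4 and partial 8.1 had 3. Those of partial 1.4 were all Tj4 elements, and those of partial 8.1 were Tj10 and Tj4 elements. By median CPM per kb over all loci, Tj4 ranked 10 of 10 families (0.0865) and Tj10 ranked 9 (0.363). For both solo LTRs among the 5 loci the highest measured neighbour was also a Tj4 element. Those of Tj2-1 were Tj3, Tj4 and Tj6 elements, and Tj6 ranked 4 (3.31). How far the gaps follow the families of the neighbours was not tested. On supercont5.7 the contrast was also within Tj2, since LTR 7.1, 589 bases after Tj2-1 on the opposite strand, had 1.04 CPM per kb.

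Other Tj2 copies sat beside elements with much higher levels. Partial 1.2, the highest of Tj2 per kb with 27.9, lay within 5 kb of Tj7-type_LTR-1.3 with 190 CPM per kb. Partial 15.1 had 3.35 CPM per kb, against 48.5 CPM per kb for Tj6_partial_retrotransposon-15.1, 472 bases before it on the same strand. LTR 4.3 had 1.71 CPM per kb, against 21.0 CPM per kb for Tj8_partial_retrotransposon-4.1, which abutted it on the same strand. High and low Tj2 copies were thus found next to both higher and lower elements.

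**Figure D4:**
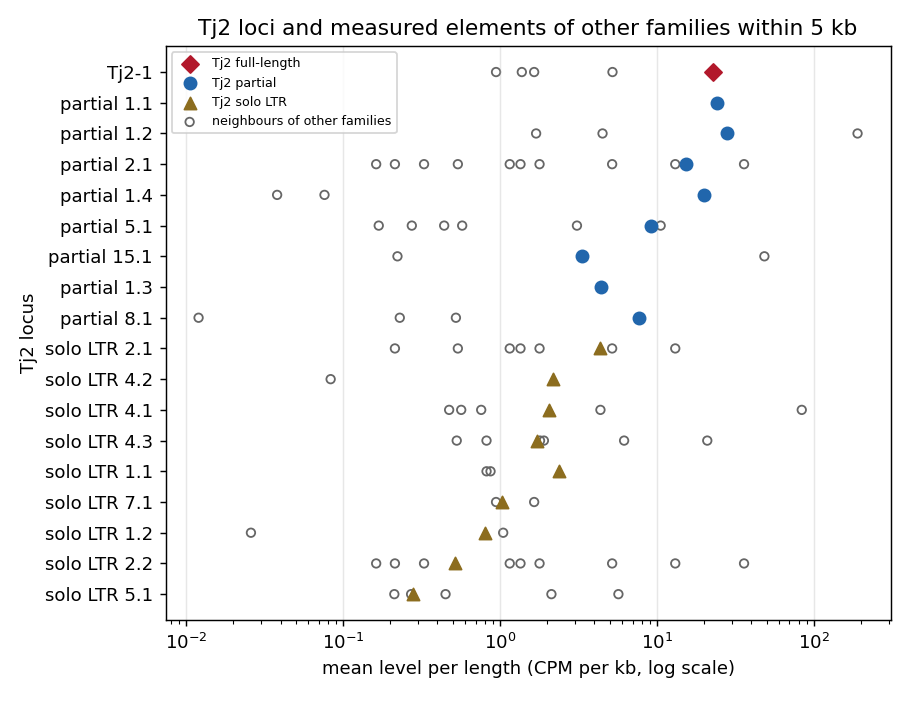
Mean level per length (CPM per kb, log scale) of each Tj2 locus (filled markers) and of the measured elements of other families within 5 kb of it (open circles); solo LTR 2.2 and solo LTR 5.1 are drawn at the lowest level of the table divided by their length. In 5 of the 16 rows with open circles the Tj2 locus is to the right of all of them, and in 0 rows to the left of all. For solo LTR 5.1 the latter holds only because it is drawn at that lowest level. Solo LTR 7.1 is also close to that level, and in CPM it was below both its measured neighbours.

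Annotated genes could be placed beside the 9 Tj2 loci on supercont5.1 and supercont5.2. A tRNA gene lay within 1 kb of 3 partial elements, at 261 bases from partial 1.1, 588 bases from partial 1.2 and 490 bases from partial 1.3. These included the pair with the highest levels among partial copies. The pair 1.1 and 1.2 lay between the first of these tRNA genes on one side and the second on the other. A protein-coding gene lay within 1 kb of 4 loci, each of them a solo LTR. For loci of other families the counts near genes are not given here.

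Among these solo LTRs, LTR 1.1 had 2.39 CPM per kb, against 63.9 CPM per kb (94.2 CPM) for a gene 60 bases from it. LTR 1.2 had 0.801 CPM per kb, most of it the lowest level of the table, against 0.293 CPM per kb for a gene 92 bases from it. With that level subtracted LTR 1.2 had 0.160 CPM per kb, so it cannot be said to lie above the gene. LTR 2.2, at the lowest level, lay wholly (100%) inside SJAG_03765, annotated on supercont5.2 from 3832986 to 3833673, a gene with 0.740 CPM and 1.08 CPM per kb. How reads in overlapping annotations were counted is not given in the sources used here, so its lack of reads cannot be read as a lack of transcripts.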

How the data were processed

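Polyadenylated RNA was read paired-end from TruSeq stranded mRNA libraries, 3 of the dcr1 mutant and 3 of wild type. By the submitters' processing notes, the authors used Trim Galore 0.4.3.1, STAR 2.7.2b, featureCounts 2.0.1 and edgeR 3.34.0, while the study's methods give other versions of the last pair. They used the SJ5 assembly with each multi-mapping read divided in fractions among its places. The strand setting and the handling of overlapping annotations are not given in the sources used here. The deposited log2 CPM is the authors' mean over all 6 libraries and holds a prior count from edgeR. The other 4 columns of the deposited table hold the authors' comparison of the strains (log2 fold change, F, p-value and FDR) and were not used. No values per library were used, so no test, SD or depth is given.

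CPM was computed from the deposited log2 CPM, and CPM per kb by element length. Positions came from the study's supplementary element table (396 elements on 28 contigs), whose starts count from 0 (5 are 0) and are printed here counted from 1. RefSeq genes of SJ5 carry no contig name, and 5072 of 5224 were placed on 3 long contigs by runs of rising positions. No gene names pair with the locus tags, so dcr1 and mpe1 were not looked up and the dcr1 label was not checked. The rule for naming covered all Tj2 loci, elements next to them, genes overlapping them and the highest locus of each other family. Full-length elements, the highest neighbours and genes close to a solo LTR were named after their values were seen. The members and lists were chosen with earlier results of these data known. Python 3.11.15, numpy 2.4.6, pandas 2.3.3 and matplotlib 3.10.9 were used, and the functions were tested on simulated data. Alternatives left out element types or loci at the lowest level, subtracted that level, or changed distances, totals and length scales.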

Additional observations from a re-analysis of the deposited data

How the results depend on the processing

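No paired analysis was possible because the values used are 1 mean per locus over all 6 libraries, and for the same reason no library could be left out. Without loci at the lowest level the median log2 CPM of Tj2 was 1.67 in place of 0.64, its excess over the other Tj1 to Tj10 loci 1.88 in place of 1.21, and that of Tj2 partial elements over solo LTRs 4.54 in place of 5.24 (2.84 per kb). Without solo LTRs the median was 3.64 log2 CPM, the summed level 305 CPM in place of 308, the median per kb 15.4 in place of 3.85 CPM, and rho 0.80 in place of 0.915; rho was 0.899 without Tj2-1. Over partial elements alone the excess over the other loci was 3.37. With the lowest level subtracted the median was 0.77 log2 CPM, the sum 307 CPM and the median per kb 3.69 CPM. The share of 4.70% was 12.4% with Tj7 left out of the total, and 4.58% with genes covered by elements added on the long contigs. Of the 18 loci, 14 were over 2 times the lowest level and 12 over 10 times it, and 18 had a neighbour within 20 kb and 16 one of Tj1 to Tj10. Chosen after the data were seen were the counts above every neighbour, 8 of 14 loci within 1 kb in place of 5 of 16, and the rank of partial elements, 2 over at least 500 bases and 3 by summed CPM over summed length in place of 1. Also chosen then was the log2 ratio of Tj2 to the other families per kb. Taken from medians it was 1.61 over all loci, 2.95 over partial elements and 1.26 over solo LTRs, and with the lowest level subtracted 1.92, 3.21 and 1.75 in that order. From summed CPM over summed length all of these were reversed, at -0.32, -0.78 and -1.88, and with Tj7 left out they were 1.13, 0.76 and, still reversed, -0.66. Among the other alternatives of this paragraph no direction was reversed. Some orders of single loci given above also turned with the scale or with the lowest level subtracted, such as LTR 1.2 against its nearest gene. The causes were not tested.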
